A study of Mus musculus with 9 samples.

Results

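The cytochrome P450 genes of the deposited expression table were described in sorted proximal tubular epithelia of 9 mice, 3 in each of the groups db/m, db/db-dapa and db/db. Members were all symbols that read Cyp followed by a digit, except Cyp51, Cyp24a1 and Cyp27b1, which gave 102 of the 24421 genes listed. The db/db mouse lacks a working leptin receptor and is obese and hyperglycemic, and the heterozygous db/m mouse served as the non-diabetic control. Mice of all 3 groups, labelled C57BL/6, carried SLC34a1GCE, a tamoxifen-dependent Cre at the gene of a proximal tubular phosphate transporter, and the R26tdTomato reporter. All received 5 injections of 3 mg tamoxifen from 8 weeks of age. The db/db-dapa mice drank dapagliflozin, an inhibitor of the sodium-glucose transporter SGLT2, at 1.5 mg/kg/day for 8 weeks, and the db/db mice drank vehicle. Kidney is the labelled tissue, and the study sorted the tdTomato-positive cells before RNA was sequenced, so Slc34a1 promoter activity decided which cells entered a library.

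Cytochromes P450 are heme enzymes that insert an oxygen atom into fatty acids, steroids, retinoids, bile acid precursors and drugs. Most take electrons from the reductase Por in the endoplasmic reticulum, and the mitochondrial ones take them from ferredoxin. In the proximal tubule, enzymes of the Cyp4a subfamily hydroxylate the end of fatty acid chains and make the vasoactive lipid 20-HETE from arachidonic acid, whereas Cyp2c and Cyp2j enzymes make epoxides from it. Several rodent renal P450 genes are known to differ between the sexes and to respond to androgen, and Cyp4a genes are known targets of the fatty acid receptor PPAR-alpha.

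Each value below is in CPM, the estimated read count scaled to library size, and ± gives the SD over the 3 mice of a group. Libraries held 4817670 to 6571539 counts in db/m mice, 2733314 to 7635630 in db/db mice and 6981183 to 9033062 in db/db-dapa mice. The smallest was that of db/db replicate 1. All 6 proximal tubular markers were present, with Slc34a1 at 3530 to 6195 CPM. The S3 segment marker Slc7a13 was at 310 to 484 CPM in db/m mice and lower in every other mouse, at 7.4 to 100 in db/db and 35.1 to 125 in db/db-dapa mice. The 3 S3 markers (Slc7a13, Slc5a8, Slc22a7) summed to 581 to 817 CPM in db/m, 48.3 to 683 in db/db and 391 to 716 in db/db-dapa mice, and these ranges overlapped. Markers of the S1 and S2 segments summed to 2521 to 2828 CPM in db/m, 2679 to 3578 in db/db and 3499 to 3621 in db/db-dapa mice. The 6 proximal tubular markers summed to 7743 to 8685 CPM in db/m, 8690 to 13611 in db/db and 10223 to 12859 in db/db-dapa mice, so every diabetic mouse was above the db/m range. Of the other cells, the 2 markers of the thick ascending limb (Umod, Slc12a1) had the highest sum in db/m mice, at 747 to 1505 CPM, against 303 to 974 in db/db and 381 to 490 in db/db-dapa mice, which did not overlap with db/m mice. The part of these shifts in the P450 results was not tested. Podocyte markers summed to 214 CPM in db/db-dapa replicate 1 against at most 71 elsewhere, and markers of principal cells to 661 in db/m replicate 3 against at most 420 elsewhere. Hepatocyte markers (Alb, Apoa1, Ttr), from a tissue rich in P450, summed to 15 to 84.8 CPM. In RNA from a sorted population, fewer cells of a type and less RNA per cell cannot be told apart.

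Of the 102 members, 25 were listed at 0 in all 9 mice. Among them were Cyp7a1, the first enzyme of bile acid synthesis, Cyp8b1, a later one, the aromatase Cyp19a1, the adrenal steroid hydroxylases Cyp11b1 and Cyp11b2, and Cyp4x1. Another 23 members had values above 0 but did not pass the filter of 0.3 CPM in at least 2 of the 9 mice, and none of these reached more than 4 counts in a mouse. Thus 54 members were tested. A mean of at least 1000 CPM over the 9 mice was found for 3 members, 100 to under 1000 for 12, 10 to under 100 for 9, and 1 to under 10 for 15. Many values were fractional: 60.4% of the members' values above 0 were whole numbers, against 85.9% over all genes. What the fractional values stand for is not given in the sources used here.

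Per kilobase of its longest transcript, Cyp4b1, an oxidase of fatty acids and aromatic amines, had the highest level, with a mean of 1186 CPM per kilobase over the 9 mice. Cyp2e1, which oxidizes ethanol and acetone, followed at 1104, the arachidonic acid epoxygenase Cyp2j5 at 628, Cyp2d26 at 304, Cyp4a10 at 240 and Cyp4a14 at 227. The first 6 places were held by the same genes when lengths of merged exons were used. Reads of Cyp4b1, Cyp2e1, Cyp2j5 and Cyp4a14 made up 54.6 to 70.7% of all P450 reads of a mouse. Members were clustered in the genome, with 20 on chromosome 4, 19 on chromosome 19, 15 on chromosome 7, 12 on chromosome 17 and 11 on chromosome 15.

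The sequences before the start sites of 5 members are shown because the genes were among those called (Cyp4b1, Cyp2a4, Cyp2d26), because Cyp2a5 is nearly identical to Cyp2a4, or because the window holds a receptor repeat (Cyp2d9, which was not called). RefSeq (GRCm38.p6) gave a promoter for 76 of the 102 members. The window runs from 220 to 21 bases before the start, 5′ to 3′ on the gene's strand. Capitals mark TATAA on either strand, or AGGNCA repeated after 1 base on either strand, the form of repeat that PPAR and HNF4 receptors are known to bind.
Cyp4b1, chr4:115647742-115647941, minus strand: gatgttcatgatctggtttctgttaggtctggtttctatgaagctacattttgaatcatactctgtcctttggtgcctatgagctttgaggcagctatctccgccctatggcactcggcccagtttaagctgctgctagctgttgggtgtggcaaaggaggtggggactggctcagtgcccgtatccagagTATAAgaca
Cyp2a4, chr7:26306972-26307171, plus strand: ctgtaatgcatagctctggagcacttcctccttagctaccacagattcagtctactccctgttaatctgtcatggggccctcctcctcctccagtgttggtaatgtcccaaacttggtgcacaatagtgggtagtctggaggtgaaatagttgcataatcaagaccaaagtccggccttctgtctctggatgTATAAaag
Cyp2a5, chr7:26835119-26835318, plus strand: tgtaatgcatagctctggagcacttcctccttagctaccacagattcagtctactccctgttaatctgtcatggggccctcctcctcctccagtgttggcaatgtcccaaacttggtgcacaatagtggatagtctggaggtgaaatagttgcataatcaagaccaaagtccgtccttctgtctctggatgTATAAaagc
Cyp2d26, chr15:82794266-82794465, minus strand: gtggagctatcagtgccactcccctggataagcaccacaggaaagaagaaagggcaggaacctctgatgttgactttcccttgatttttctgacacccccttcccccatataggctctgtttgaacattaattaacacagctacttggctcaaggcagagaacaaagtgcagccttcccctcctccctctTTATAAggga
Cyp2d9, chr15:82452157-82452356, plus strand: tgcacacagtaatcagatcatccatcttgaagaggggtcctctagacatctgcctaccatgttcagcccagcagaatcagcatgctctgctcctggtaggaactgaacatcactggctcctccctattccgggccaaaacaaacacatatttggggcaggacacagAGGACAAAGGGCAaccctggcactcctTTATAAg
TATAA stood in 39 of the 86 P450 windows (45.35%) and in 19.17% of all 32851 windows of this length, and all 5 windows above hold it near the start. Of the called members that had a promoter but are not shown, Cyp2e1 holds it near the start, whereas neither window of Cyp2j13 holds it. The repeat stood in 3 P450 windows, those of Cyp2d9, Cyp2d10 and Cyp2d40 (3.49%), and in 0.27% of all windows. All 3 are related genes of 1 cluster on chromosome 15 with the same letters at the repeat, so they may not be independent matches. Cyp2d40 did not pass the filter for testing. The windows of Cyp2a4 and Cyp2a5, shifted by 1 base, were the same at 196 of 199 bases. A match of letters does not show that a factor binds there.

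The summed level of all members was 12104, 11843 and 11942 CPM in the db/m mice. It was 4902, 7000 and 10787 in the db/db mice, and 10550, 9220 and 11242 in the db/db-dapa mice. Every diabetic mouse was below the db/m range, and the third db/db mouse lay within the range of the treated ones. Library sizes of the db/db mice, 2733314, 4951030 and 7635630 counts, stood in the same order as their sums. The part of library size was not tested. Within the sum, Cyp4b genes took 3559 to 4357 CPM in db/m mice and 874 to 2019 in the other 6 mice, whereas Cyp4a genes took 1045 to 1173 in db/m mice and more than that in 5 of the other 6.

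**Figure D1:**
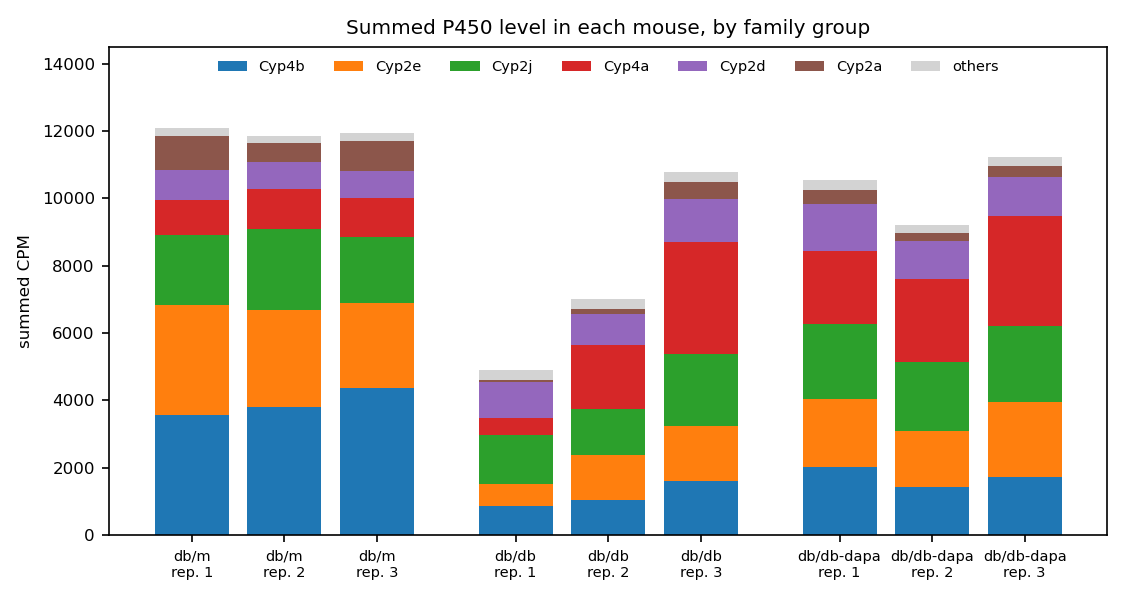
Summed CPM of the 102 P450 genes in each of the 9 mice, stacked by family group, with 3 bars for each group of mice. The blue Cyp4b part is largest in the 3 db/m mice, at 3559 to 4357 CPM, and db/db replicate 1 has the lowest total, 4902.

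Untreated db/db mice were compared with db/m mice to ask which P450 genes differed with diabetes. Of the 54 members tested, 3 rose (Cyp2d26, Cyp2d22, Cyp2c44) and 5 fell (Cyp4b1, its pseudogene Cyp4b1-ps2, Cyp2e1, Cyp2a4, Cyp2j13). A gene was called where its adjusted p was below 0.1 and its log2 fold change beyond 1 in either direction. Over all 15583 genes tested, 0.545% were called higher and 0.699% called lower. The groups did not overlap for 17 members, 8 higher and 9 lower in db/db mice, or 31.5% of the members against 16.4% of all genes. The median log2 fold change was -0.021 over the members and 0.02 over all genes, so members moved both ways. All p-values were adjusted over all genes tested by the Benjamini-Hochberg method, from the quasi-likelihood test of edgeR, and SE is the standard error of the log2 fold change.

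**Figure D2:**
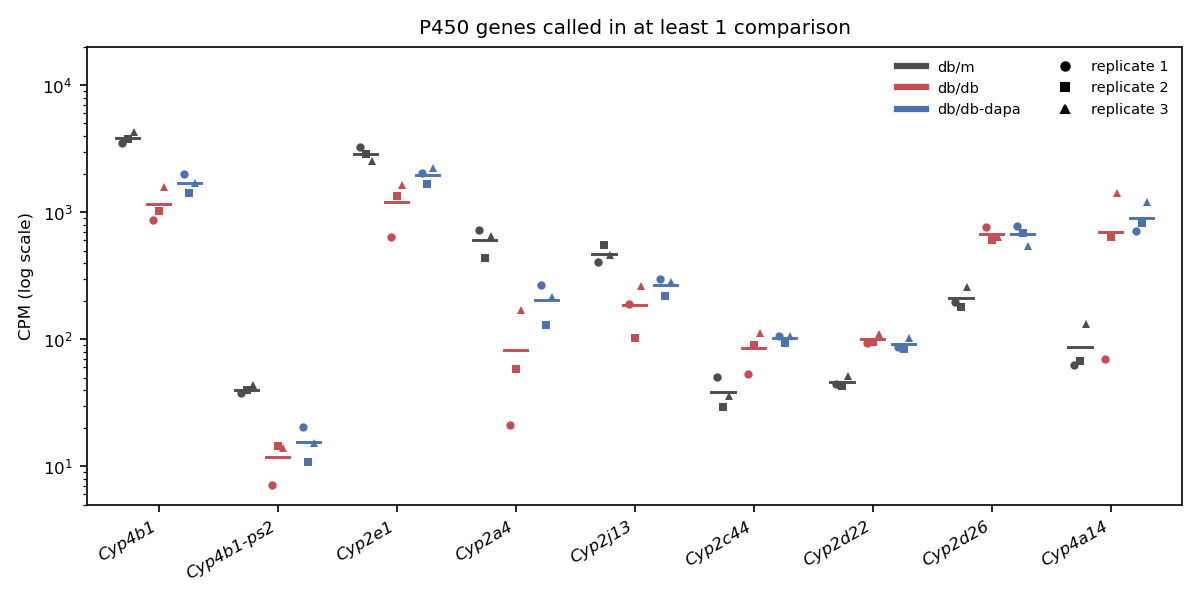
CPM on a log axis of the 9 P450 genes called in at least 1 comparison, with 1 point per mouse (symbols mark the replicate) and a bar at the mean of each group. The 3 db/m mice lie above the other 6 for Cyp4b1, Cyp4b1-ps2, Cyp2e1, Cyp2a4 and Cyp2j13, and below them for Cyp2c44, Cyp2d22 and Cyp2d26.

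Cyp4b1 lies on the minus strand of chromosome 4, from 115624725 to 115647723 in GRCm38, the same build as mm10. Its level was 3521, 3764 and 4314 CPM in db/m mice, 867, 1018 and 1595 in db/db mice, and 1999, 1409 and 1710 in db/db-dapa mice. All db/m mice were above all others, and db/db and db/db-dapa mice overlapped. The level in db/db mice was 3.33-fold lower than in db/m mice (log2 fold change -1.74, SE 0.25, adjusted p = 0.0106), and the gene was called whichever of the 9 mice was left out. The unprocessed pseudogene Cyp4b1-ps2, 41.6 kb away, fell alongside it, from 40.2 ± 2.93 to 11.9 ± 4.09 CPM (log2 fold change -1.72, SE 0.29, adjusted p = 0.0198). Its level was 0.764 to 1.42% of that of Cyp4b1 in every mouse. Of its 101-base windows, 15.5% occur in transcripts of Cyp4b1, the only other gene that shares any. Its values were fractional in 8 of the 9 mice. The count of Cyp4b1-ps2 is therefore uncertain, and its call may not be separate from that of Cyp4b1. Whether reads of the pseudogene came from Cyp4b1 was not tested.

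Cyp2e1 spans chromosome 7 from 140763739 to 140774987. The db/m mice had 3263, 2873 and 2526 CPM. The gene was at 642, 1348 and 1628 in db/db mice and at 2033, 1671 and 2234 in db/db-dapa mice. The 3 groups did not overlap, with db/m highest and db/db lowest. The fall in db/db mice was 2.39-fold (log2 fold change -1.26, SE 0.3, adjusted p = 0.0891), and the call was kept only when db/db replicate 3 was the mouse left out.

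Cyp2a4, a testosterone hydroxylase, had the largest change of the 8 called members. It lies on chromosome 7 from 26307169 to 26315088 and was at 730, 433 and 651 CPM in db/m mice, 21.1, 58 and 170 in db/db mice, and 268, 129 and 217 in db/db-dapa mice. No db/db or db/db-dapa mouse reached the lowest db/m mouse. The level in db/db mice was 7.19-fold lower (log2 fold change -2.85, SE 0.59, adjusted p = 0.0511). Without db/db replicate 3 the log2 fold change was -3.91, and the call was lost without db/m replicate 1, db/m replicate 3 or db/db replicate 2. Cyp2a5, a coumarin hydroxylase 520.2 kb away whose protein is 97.6% identical, was at 302, 139 and 238 CPM in db/m mice, 44.9, 72 and 344 in db/db mice, and 139, 101 and 108 in db/db-dapa mice. It was not called (log2 fold change -0.55, SE 0.59, adjusted p = 0.724), and db/db replicate 3 had the highest value of all mice. Cyp2a4 was 2.42 to 3.12 times Cyp2a5 in db/m mice, 0.47 to 0.806 times in db/db mice and 1.28 to 2 times in db/db-dapa mice, with no overlap between the groups. As 10.9% of the windows of Cyp2a4 and 14% of those of Cyp2a5 are shared with other genes, some reads could have been placed on either.

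**Figure D3:**
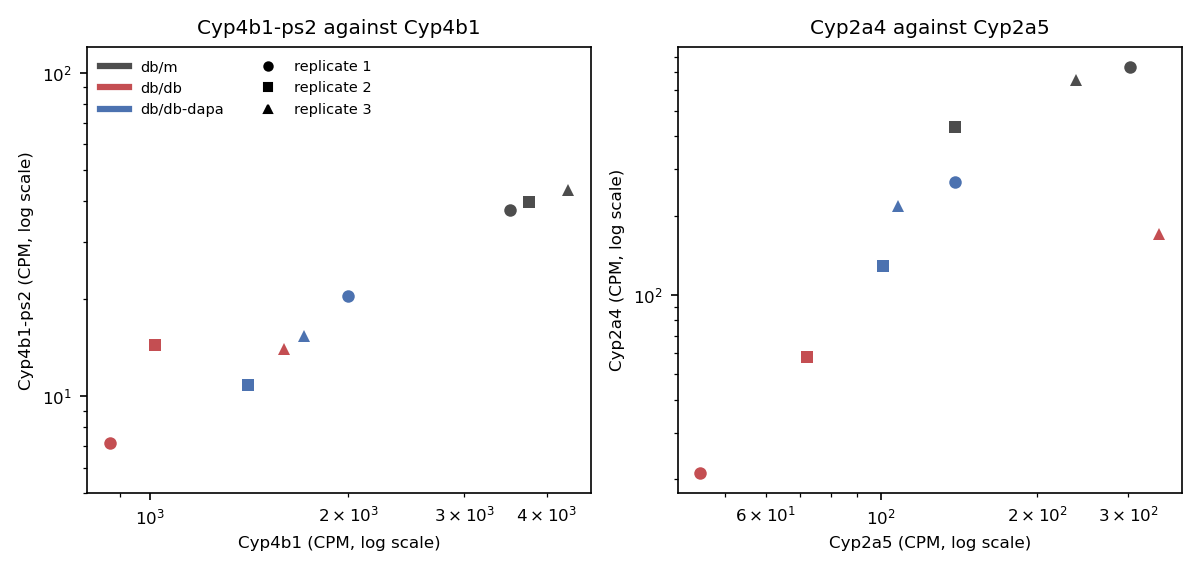
Levels of 2 pairs of near-identical genes in CPM on log axes, with 1 point per mouse. Cyp4b1-ps2 follows Cyp4b1 at 0.764 to 1.42% of its level, whereas the ratio of Cyp2a4 to Cyp2a5 is 2.42 to 3.12 in db/m mice and 0.47 to 0.806 in db/db mice.

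Among the Cyp2j genes, Cyp2j13 fell from 407, 549 and 461 CPM in db/m to 190, 102 and 262 in db/db mice, without overlap (log2 fold change -1.35, SE 0.3, adjusted p = 0.068). The call was kept in 2 of the 9 fits that left out a mouse, without db/db-dapa replicate 1 and without db/db replicate 3. The more abundant Cyp2j5 did not pass the test, at 1471 ± 189 CPM in db/m and 1278 ± 310 in db/db mice (log2 fold change -0.2, SE 0.2, adjusted p = 0.693). Cyp2j11 was at 111 to 150 CPM in db/m mice and at 72.1, 72.8 and 166 in db/db mice, so the groups overlapped.

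The 5 members that fell did so beside other genes. A list of androgen-responsive kidney genes was chosen with earlier results of these data known, so it is not independent of them. In db/db against db/m mice, 8 of its 17 genes found in the table fell and 0 rose. Their median log2 fold change was -1.64, beside 0.02 over all genes, of which 0.699% were called lower. In db/db-dapa against db/m mice, 5 fell and 0 rose, with a median of -1.09, beside 0.475% called lower and -0.022 over all genes. The other analyses and fits without 1 mouse called 6 to 11 and 2 to 8 of them. Their summed level was 33478 to 44480 CPM in db/m mice, 4633 to 8031 in db/db and 9024 to 13477 in db/db-dapa mice. The S3 segment marker Slc22a7, on the same list, was at 42.9 to 73.5 CPM in db/m mice and at most 0.525 in all others, whereas Slc5a8, another S3 marker, was at 228 to 269 CPM in db/m mice and within 38.4 to 591 in the others. The part of S3 cells and of androgen-responsive genes in the P450 results was not tested.

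The members that rose belong to subfamilies 2d and 2c. Cyp2d26 spans chromosome 15 from 82790101 to 82794294. Its level was 198, 179 and 257 CPM in db/m, 768, 606 and 634 in db/db, and 784, 682 and 542 in db/db-dapa mice. It was the member with the smallest adjusted p, and every diabetic mouse was above every db/m mouse. The rise in db/db mice was 3.17-fold (log2 fold change 1.66, SE 0.21, adjusted p = 0.0051), and it was called whichever mouse was left out. Cyp2d22, on chromosome 15 from 82370527 to 82380260, rose from 46.2 ± 4.66 to 99.5 ± 9.66 CPM (log2 fold change 1.11, SE 0.17, adjusted p = 0.0132), again in all 9 fits that left out a mouse. Cyp2d12, from the same cluster, went the other way, with 231, 248 and 225 CPM in db/m and 140, 117 and 133 in db/db mice. Its adjusted p was 0.0494, but its log2 fold change of -0.85 (SE 0.17) missed the threshold of 1. Cyp2d9, a male-typical testosterone 16-alpha-hydroxylase in mouse liver, was at 395, 322 and 266 CPM in db/m mice and at 57.1, 120 and 383 in db/db mice, so that db/db replicate 3 alone lay within the db/m range (log2 fold change -0.8, SE 0.51, adjusted p = 0.529). Without that mouse, the log2 fold change was -1.88 and the gene was called.

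Cyp2c44, an arachidonic acid epoxygenase listed as Cyp2c23 in GENCODE, lies on chromosome 19 from 44005022 to 44029208. Its level was 50.7, 29.3 and 35.7 CPM in db/m mice, 53, 89.6 and 113 in db/db mice, and 106, 93.6 and 106 in db/db-dapa mice. The lowest db/db mouse was just above the highest db/m mouse. The rise in db/db mice (log2 fold change 1.15, SE 0.27, adjusted p = 0.0962) was called only when db/db replicate 1 was the mouse left out. The other 5 Cyp2c genes tested were at most 3.4 CPM, and Cyp2c69, Cyp2c68 and Cyp2c40, whose proteins are 93.9 to 97.1% identical, are uncertain in counting.

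Without db/db replicate 2, db/m replicate 1 or db/m replicate 3, 4 members were called in db/db against db/m mice in place of 8. Without db/m replicate 2, db/db-dapa replicate 2 or db/db-dapa replicate 3, 5 were called. Cyp2d22, Cyp2d26, Cyp4b1 and Cyp4b1-ps2 were called in every one of these fits.

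Several Cyp4a genes spread widely between db/db mice, with a summed level of 497, 1879 and 3330 CPM, again in the order of library size. Cyp4a14, a fatty acid hydroxylase and a strong PPAR-alpha target in liver, lies on chromosome 4 from 115486200 to 115496142. It was at 63.2, 67 and 131 CPM in db/m mice, 70, 633 and 1411 in db/db mice, and 711, 816 and 1198 in db/db-dapa mice. The first db/db mouse was at the db/m level and the other two were far above it. The log2 fold change in db/db mice was 3.02 (SE 0.76, adjusted p = 0.108) and missed the threshold, whereas without db/db replicate 1 it was 3.56 with an adjusted p of 0.00581. Cyp4a10, its neighbour at 22.1 kb, had its lowest db/db value in the same mouse, there below every db/m mouse, with 269, 229 and 341 CPM in db/m, 101, 565 and 913 in db/db, and 599, 681 and 862 in db/db-dapa mice (db/db against db/m: log2 fold change 0.91, SE 0.54, adjusted p = 0.491). Without db/db replicate 1 its log2 fold change was 1.4 and it was called. Cyp4a31 and Cyp4a32, whose proteins are 94.5% and 96.3% identical to Cyp4a10, were likewise lowest of all mice in db/db replicate 1, at 166 and 11.9 CPM.

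Cyp4a12a, an omega-hydroxylase that is known to be male-biased and androgen-responsive in mouse kidney, differed from these. It was at 283, 430 and 238 CPM in db/m mice, 108, 118 and 205 in db/db mice, and 225, 262 and 306 in db/db-dapa mice, with every db/db mouse below the other 6. The log2 fold change in db/db mice was -1.13 (SE 0.29, adjusted p = 0.108), which missed the threshold. It passed in 6 of 8 other analyses but in 1 of the 9 fits that left out a mouse, that without db/db replicate 3, and the adjusted p over all of these was 0.00796 to 0.267. Cyp4a12b, whose protein is 97.8% identical, was at 83.6, 117 and 73.3 CPM in db/m, 39.4, 81.8 and 122 in db/db, and 132, 149 and 158 in db/db-dapa mice. The level of Cyp4a12b was 27.2 to 30.7% of that of Cyp4a12a in db/m mice and 36.4 to 69.1% in the other mice. More than 35% of the windows of each gene are shared with other genes, so reads could have been divided between them.

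**Figure D4:**
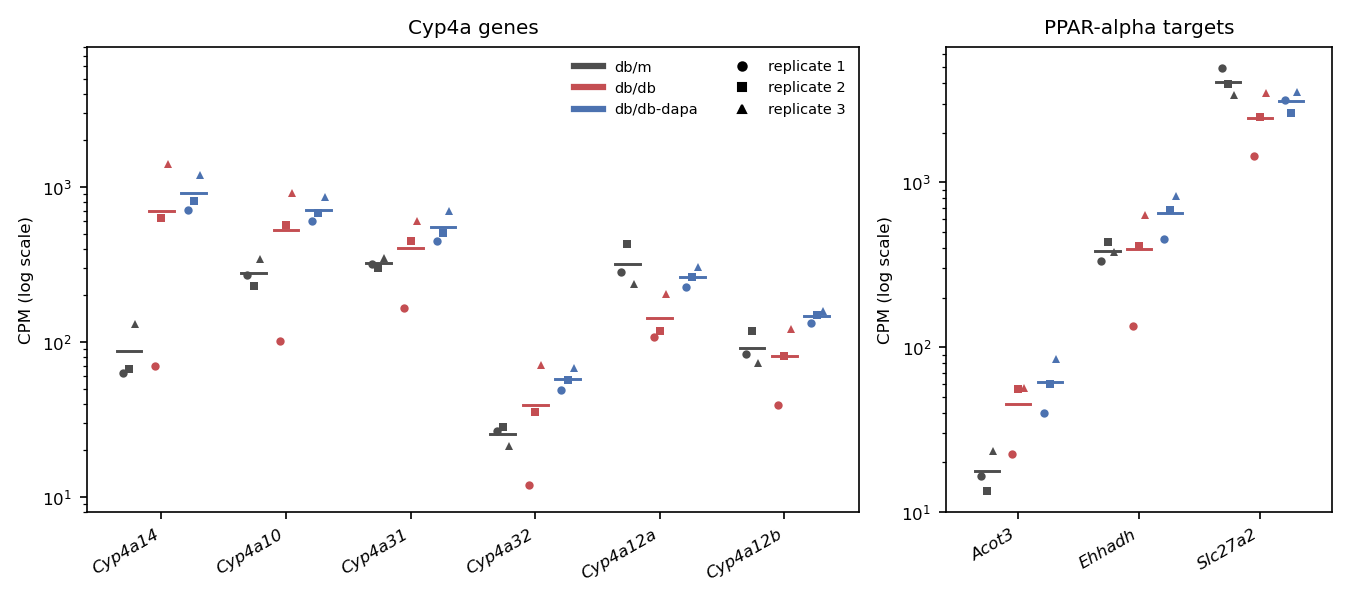
CPM on log axes of 6 Cyp4a genes (left) and 3 PPAR-alpha targets (right), with 1 point per mouse and a bar at the mean of each group. In db/db replicate 1 (red circle) Cyp4a14 is at 70 CPM against 633 and 1411 in the other db/db mice, and Ehhadh is at 135 against 409 and 637.

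Of 24 other PPAR-alpha targets tested with edgeR, 0 were called in db/db against db/m mice. An unadjusted p under 0.05 was found there for 6 of the 24, against 13.75% of all genes. In treated against db/m mice, 1 rose and 0 fell, and 9 of the 24 had an unadjusted p under 0.05. Over all genes, 0.578% were called higher there, 0.475% were called lower and 18.15% had such a p. The counts depended on the analysis. In db/db mice, DESeq2 called 2, the fit without a filter 2, limma 0, weighted limma 3 and the fit with a replicate block 2. Leaving out a mouse gave 4 (db/db replicate 1), 2 (db/db replicate 3) or 0 (any other). In treated mice, DESeq2 called 4, the fit without a filter 3, limma 1, weighted limma 7, the fit of only the 2 groups 7 and the replicate block 3. Leaving out a mouse there gave 7 (db/db replicate 3), 5 (db/db replicate 1), 3 (db/db-dapa replicate 1), 2 (db/db replicate 2) or 0 (any other). The gene that rose was the acyl-CoA thioesterase Acot3, at 16.5, 13.4 and 23.5 CPM in db/m, 22.4, 56 and 56.2 in db/db, and 40, 59.3 and 84.6 in db/db-dapa mice (log2 fold change 1.79, SE 0.37, adjusted p = 0.0672), a call lost without any one db/m mouse or without db/db-dapa replicate 2 or 3. For Acot3, db/db replicate 1 lay within the db/m range and the other db/db mice above it. The peroxisomal enzyme Ehhadh and the fatty acid transporter Slc27a2 were not called in any comparison. Against db/m mice, the list had a median log2 fold change of 0.13 without and 0.24 with treatment, beside 0.02 and -0.022 over all genes. Ppara itself was at 90.4 to 146 CPM in db/m, 143 to 220 in db/db and 124 to 197 in db/db-dapa mice and was not called.

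Dapagliflozin-treated db/db mice were then compared with untreated db/db mice. With edgeR, 0 of 54 members and 0 of all genes (0.0%) were called. The study, which also used edgeR with these thresholds but filtered on FPKM, did report differentially expressed genes between these groups. The source of that difference was not tested. An unadjusted p under 0.05 was found for 8 of the 54 members (14.8%), a larger share than the 5.19% of all genes. DESeq2 and limma on log2(CPM + 1) also called 0 members, and limma with a weight for each mouse called 6. The groups did not overlap for 8 members, of which 3 were higher and 5 lower with treatment (14.8%, against 10.2% of all genes). The median log2 fold change was 0.167 over the members and -0.009 over all genes. Without db/db replicate 3, the median was 0.034 and 7 members were called. The shares of all genes called by the weighted fit and without that mouse are not reported here.

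Among members with a mean of at least 5 CPM, the 3 with the highest log2 fold changes in db/db-dapa mice were Cyp2a4 at 1.28 (SE 0.56), Cyp4a12a at 0.87 (SE 0.28) and Cyp4a12b at 0.84 (SE 0.33). They were chosen for these values, and the adjusted p was 0.854 for each. The db/db-dapa mice were above every db/db mouse for Cyp4a12a and Cyp4a12b, while for Cyp2a4 db/db replicate 3 lay between them. The 3 with the lowest were Cyp2s1 at -0.57 (SE 0.36), Cyp2j9 at -0.48 (SE 0.28) and Cyp27a1 at -0.44 (SE 0.18), also with an adjusted p of 0.854. Cyp27a1, the mitochondrial sterol 27-hydroxylase, was at 87.9, 77.8 and 76.8 CPM in db/m, 123, 95.2 and 84 in db/db, and 78.9, 68.3 and 75.2 in db/db-dapa mice, a small shift without overlap between the diabetic groups. For the abundant genes, the log2 fold change was 0.56 (SE 0.24) for Cyp4b1 and 0.71 (SE 0.29) for Cyp2e1, each with an adjusted p of 0.854.

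Cyp26b1, on chromosome 6 from 84571414 to 84593908, degrades retinoic acid. It was low in db/m mice, at 1.1, 0.523 and 1.11 CPM, higher in db/db mice, at 12.9, 10.2 and 3.16, and low again in db/db-dapa mice, at 3.12, 0.394 and 0.566. The db/db mice did not overlap with either other group, although the lowest of them was almost level with db/db-dapa replicate 1. The log2 fold change was 3.21 (SE 0.79, adjusted p = 0.103) for db/db against db/m and -2.67 (SE 0.74, adjusted p = 0.854) for treated against untreated diabetic mice, and neither was called. Without db/db replicate 3 both were called, with adjusted p = 0.0348 and 0.0827. Cyp26a1, of the same function, was at most 1.7 CPM in any mouse.

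**Figure D5:**
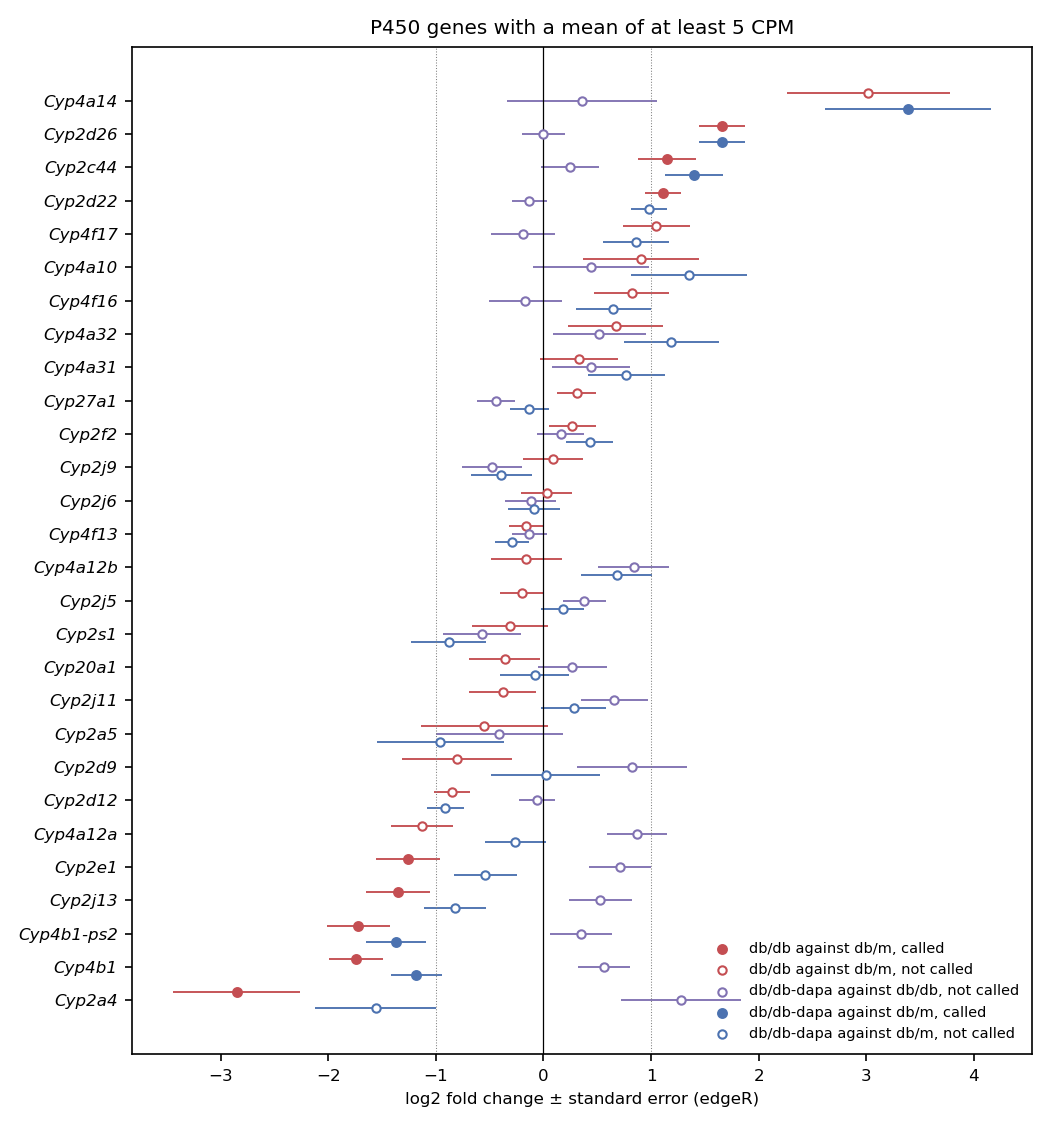
Log2 fold change with its standard error (bars) of the 28 P450 genes with a mean of at least 5 CPM in the 3 comparisons, filled where called. Filled points lie at both ends, from Cyp2a4 at -2.85 to Cyp4a14 at 3.39, and no purple point (db/db-dapa against db/db) is filled.

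In the comparison of db/db-dapa with db/m mice, which shares its groups with the other comparisons, 3 members rose (Cyp4a14, Cyp2d26, Cyp2c44) and 2 fell (Cyp4b1, Cyp4b1-ps2). Over all genes, 0.578% were called higher and 0.475% lower. The groups did not overlap for 22 members (13 higher and 9 lower), or 40.7% against 28.1% of all genes. Cyp4a14 was 10.5-fold higher (log2 fold change 3.39, SE 0.77, adjusted p = 0.0924), with its 3 db/db-dapa mice at or above 711 CPM and its db/m mice at or below 131. Cyp4a10, with a log2 fold change of 1.35 (SE 0.54, adjusted p = 0.241), was not called, although its groups did not overlap. Cyp2d26 was 3.17-fold higher (log2 fold change 1.66, SE 0.21, adjusted p = 0.00716) and Cyp2c44 2.64-fold higher (log2 fold change 1.4, SE 0.27, adjusted p = 0.0585). Cyp4b1 was 2.27-fold lower than in db/m mice (log2 fold change -1.18, SE 0.24, adjusted p = 0.0671), and Cyp4b1-ps2 2.59-fold lower (log2 fold change -1.37, SE 0.28, adjusted p = 0.0621).

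Some genes called in db/db mice had a db/db-dapa mean between the means of the other groups, and the difference between the comparisons was not tested. The db/db-dapa and db/db mice overlapped for Cyp2a4 and Cyp2j13 but not for Cyp2e1, and edgeR called no member between these groups. Against db/m mice, db/db-dapa mice had a log2 fold change of -1.56 for Cyp2a4 (SE 0.56, adjusted p = 0.212), -0.54 for Cyp2e1 (SE 0.29, adjusted p = 0.331) and -0.82 for Cyp2j13 (SE 0.29, adjusted p = 0.212), none of them called. Cyp2d22 had an adjusted p of 0.0333 but a log2 fold change of 0.98 (SE 0.17). Without db/db replicate 3, 10 members were called in place of 5. Without db/db-dapa replicate 2 or 3, or db/m replicate 1 or 2, 1 was called, and 2 were without db/m replicate 3. Cyp2d26 was called in each of these fits. Cyp2c44, Cyp4b1 and Cyp4b1-ps2 were lost when any one db/m mouse or db/db-dapa replicate 2 or 3 was left out, and Cyp4a14 also without db/db replicate 2.

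The remaining families were low or showed no call. Per kilobase, Cyp27a1 had 45.1 CPM. The leukotriene hydroxylase relative Cyp4f13 had 20.9, Cyp2f2 7.46, Cyp2s1 2.46 and Cyp20a1, an orphan enzyme, 2.53. Cyp4f17 was at 4.36 to 5.77 CPM in db/m mice and 6.4 to 12.1 in db/db mice, without overlap (log2 fold change 1.05, SE 0.31, adjusted p = 0.175). Cyp4f16, which shares 9.6% of its windows, was at 2.83 to 9.4 CPM in all mice. Cyp7b1, the oxysterol 7-alpha-hydroxylase, was at 7.56, 0.698 and 2.89 CPM in db/m, 2.04, 1.4 and 0.884 in db/db, and 1.14, 0 and 0.339 in db/db-dapa mice, and all db/db values lay within the db/m range. Cyp39a1, Cyp46a1, Cyp4v3, Cyp2u1 and Cyp1b1 were at most 4.72 CPM in any mouse and were not called. The only member of family 3 that was tested, Cyp3a13, was at most 1.05 CPM, and the 6 steroidogenic genes of families 11, 17, 19 and 21 had no tested member.

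Genes that work with the P450 enzymes were counted beside the shares over all genes. Of all genes tested, 0.545% were called higher and 0.699% lower in db/db against db/m mice. In db/db-dapa against db/m mice, these shares were 0.578% and 0.475%. An unadjusted p under 0.05 was found for 13.75% of all genes in db/db and for 18.15% in db/db-dapa against db/m mice. The median log2 fold changes over all genes were 0.02 and -0.022. With lists this short, counts of called genes at or near 0 neither set these genes apart from the rest nor show them unchanged. Of 10 redox partners tested, 0 were called in each comparison by edgeR, and 3 had an unadjusted p under 0.05 in db/db against db/m mice, where DESeq2 and limma also called 0. Por, which passes electrons to the microsomal enzymes, was at 325 to 391 CPM in db/m, 230 to 486 in db/db and 385 to 446 in db/db-dapa mice. Of 14 genes of heme synthesis and breakdown, 0 were called. In db/db against db/m mice, 3 had an unadjusted p under 0.05, and there DESeq2 called 0 and weighted limma 1. In db/db-dapa against db/m mice 1 had such a p, and the medians of the list were -0.15 and -0.21. Alas1, the rate-limiting enzyme of heme synthesis, was at 327 to 654 CPM in db/m mice against 255 to 265 in db/db mice without overlap (log2 fold change -0.96, adjusted p = 0.0891). Among 15 genes of epoxide hydrolysis and arachidonic acid metabolism tested, 1 fell in db/db mice (the lipoxygenase Alox15) and 2 fell in db/db-dapa mice (Alox15 and the prostaglandin E synthase Ptges), and 0 rose. In each of these comparisons with db/m mice, 5 had an unadjusted p under 0.05, and the medians were -0.46 and -0.54. Alox15 was at 54.8, 36.5 and 9.99 CPM in db/m and at most 5.68 in all other mice (log2 fold change -3.36, adjusted p = 0.0429 for db/db, and -3.75, adjusted p = 0.0396 for db/db-dapa). The Alox15 call was lost in db/db mice without db/m replicate 1 or 2 or db/db replicate 1 or 2, and in db/db-dapa mice without db/m replicate 1 or db/db-dapa replicate 2 or 3. Ptges was called in 3 of the 9 fits that left out a mouse (those without db/m replicate 2, db/db replicate 1 or db/db replicate 3), and weighted limma called 4 genes of this list in db/db-dapa mice. The soluble epoxide hydrolase Ephx2, which breaks down the epoxides that Cyp2c and Cyp2j make, was at 613 to 656 CPM in db/m and 313 to 538 in the other mice and was not called. Of 23 nuclear receptors and related factors, 1 rose in each of these comparisons with db/m mice, the xenobiotic receptor PXR (Nr1i2), from 4.57, 7.33 and 8.44 CPM in db/m to 15.6, 16.8 and 14.4 in db/db and 15.2, 20 and 15.9 in db/db-dapa mice (log2 fold change 1.21, adjusted p = 0.0655, and 1.34, adjusted p = 0.055). Without db/m replicate 1 or 2, or db/db-dapa replicate 2 or 3, Nr1i2 was called in neither comparison, and for db/db mice the call was also lost without db/db replicate 1 or 2 and in the fit of only the 2 groups. Treated and untreated db/db mice differed by 0 called genes on any of these lists.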

How the data were processed

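The authors sequenced RNA of sorted cells and mapped it to mm10, and the submitters' processing notes name TopHat2 2.0.13, Bowtie2 2.2.3, SAMtools 0.1.19 and Cufflinks 2.2.1. The deposited table carries FPKM in its name, yet its values were taken as estimated counts, since 85.9% of those above 0 are whole. How they were counted, and use of strand, is not given in the sources used here. Values were rounded and tested with edgeR 4.0.16 (quasi-likelihood, TMM scaling) in R 4.3.3 on the 15583 genes at or above 0.3 CPM in at least 2 of 9 mice, all mice in 1 fit. DESeq2 1.42.0 and limma 3.58.1 (log2(CPM + 1)), other scalings and filters, a replicate block and leaving out each mouse were alternatives. Each library came from 1 mouse. Positions and lengths are from GENCODE (GRCm38), where 100 of 102 symbols matched directly and 1 as an older symbol. Members and lists were chosen with earlier results of these data known. Genes named were those called, up to 3 of highest level per kilobase in each family, those with extreme fold changes with treatment or within a list, and near-identical pairs. Por, Ephx2, Ppara and Cyp3a13 were named after their values were seen. A gene of 1 list is not reported here.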

Additional observations from a re-analysis of the deposited data

How the results depend on the processing

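For db/db against db/m mice, limma with weighted mice called 13 members in place of 8, and leaving out 1 mouse at a time gave 4 to 11. Between treated and untreated diabetic mice, weighted limma called 6 in place of 0, and leaving out 1 mouse gave 0 to 7. Treated mice against db/m mice gave 3 members with limma on log2(CPM + 1) in place of 5, 11 with weighted limma and 9 with a fit of only the 2 groups compared, and leaving out 1 mouse gave 1 to 10. The remaining alternatives gave 6 to 12, 0, and 5 to 6 members in these comparisons. The shares of all genes called under the alternatives are not reported here. These counts therefore do not show whether P450 genes stood out in such fits. The causes were not tested, beyond the fewer mice in fits that left 1 out. With the replicate number as a block, 7, 0 and 5 members were called. Of the 9 same-numbered pairs of mice, 3 had a correlation of deviations over 0.1 (range -0.323 to 0.563), so the numbers were not shown to pair mice. Of 46 tests of single genes, each under 8 alternatives and 9 fits without 1 mouse, 642 results kept their direction and side of the threshold, 87 lost a call, 52 gained one and 1 reversed: the log2 fold change of Cyp4a14 with treatment went from 0.36 to -0.17 without db/db replicate 1, and to 1.37 without db/db replicate 3. A count of 3 was 0.339 to 1.02 CPM in a library, so the members below 1 CPM rest on few reads, and with 3 mice per group the wide spread of the Cyp4a genes in db/db mice limits what can be called.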
